A study of Mus musculus with 4 samples.

Results

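Zfp683, Hopx, Prdm1 and Bhlhe40 are 4 genes for transcriptional regulators that mark lymphocytes which settle in a tissue. They were taken by symbol from the gene lists of the files, which hold 32285 genes, and all 4 were found. Their UMI counts, which are counts of distinct tagged RNA molecules, were read in single thymic invariant natural killer T (iNKT) cells of 2 inbred mouse strains. BALB/c was represented by 2 libraries and B6 by 2 libraries. Cells of all libraries had been sorted by flow cytometry for CD3 and for binding of CD1d loaded with the glycolipid PBS57, and were profiled with a 10x Genomics 5' kit. No treatment or engineered allele is given for either strain, and no source used here gives age, sex or whether libraries came from separate mice. The p-values below therefore measure the spread between libraries, which may be technical. Strain effects are BALB/c over B6 throughout.

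Zfp683 encodes Hobit, a zinc-finger repressor related to Blimp-1, the product of Prdm1. In mice Hobit and Blimp-1 act together in tissue-resident T cells, where they repress genes that let cells leave a tissue, such as Klf2, S1pr1 and Ccr7. Hopx encodes a small homeodomain protein without DNA contacts of its own, found in T cells with T helper type 1 and cytotoxic features. Bhlhe40 encodes a basic helix-loop-helix repressor that binds E-boxes and takes part in cytokine production, and it has been described in mouse iNKT cells as a partner of T-bet, the product of Tbx21. iNKT1 cells, the subset that depends on T-bet, are the iNKT cells known to stay in the thymus for long periods. iNKT2 cells make interleukin 4, and iNKT17 cells make interleukin 17.

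After filtering, 1864 and 1913 cells remained in BALB/c, against 2328 and 8788 cells in B6, out of 2038, 2056, 2494 and 9732 barcodes in the same order. The median kept cell held 11014 and 9128 UMIs in BALB/c, against 7003.5 and 6932.5 in B6. Between 4 and 33 barcodes were shared by any pair of libraries. Cd3e stood between 1146 and 1209 CPM, which is the gene's share of a library's UMIs scaled to a fixed total, in the 4 libraries, and Zbtb16, the lineage factor of iNKT cells, between 167 and 401 CPM. Clusters were made without the 4 genes and named from marker lists that leave them out. iNKT1-like cells numbered 282 and 610 in BALB/c, against 1362 and 5788 in B6. iNKT2-like cells numbered 872 and 699 in BALB/c, against 224 and 1413 in B6, and iNKT17-like cells 320 and 182 in BALB/c, against 67 and 165 in B6. Cluster 6 held 262 and 590 of the BALB/c iNKT1-like cells, whereas those of B6 lay mainly in clusters 7, 8, 9 and 16. Another 770 of those of B6 2 lay in cluster 1, whose cells had few UMIs. Of the iNKT2-like cells, cluster 3 held 822 and 645 in BALB/c, and cluster 2 held 99 and 1324 in B6. Cluster 2 had 2.13 times the median UMIs of its cells' own libraries. Cluster 2 also passed the naming rule for cycling cells, with 9 of 10 markers raised, and cluster 3 did not. Cluster 12, named cycling, had 3.94 times the median UMIs. Cluster 2 could also hold doublets that the doublet removal missed. The part of cycling cells and of doublets in its UMIs was not tested.

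The 4 genes lie on separate chromosomes of the mouse genome (GRCm38, GENCODE vM21). Zfp683 (ENSMUSG00000049410) is at chr4:134053838-134058996 on the plus strand, and Hopx (ENSMUSG00000059325) at chr5:77086988-77115121 on the minus strand. Prdm1 (ENSMUSG00000038151) is at chr10:44437177-44528501 on the minus strand, with 85746 intronic bases, and Bhlhe40 (ENSMUSG00000030103) at chr6:108660629-108666925 on the plus strand. The RefSeq table gave windows of 250 bases before a transcription start for Hopx, with 2 starts, and for Prdm1, where the window lies inside the gene and not before its annotated 5′ end. They are shown because Hopx differed most between the strains outside iNKT1-like cells and because Bhlhe40 and Prdm1 themselves encode factors with known motifs. Both strands were searched for the E-box CACGTG, for TGANTCA (a loose AP-1 family pattern, with any base at N), for GGTGTGA (T-box family) and for AAAGTGAAA (Blimp-1 core). Capitals mark a match, and the sequences, from RefSeq on GRCm38.p6, run 5′ to 3′ along the gene's strand.
Hopx, outer start, chr5:77115124-77115373: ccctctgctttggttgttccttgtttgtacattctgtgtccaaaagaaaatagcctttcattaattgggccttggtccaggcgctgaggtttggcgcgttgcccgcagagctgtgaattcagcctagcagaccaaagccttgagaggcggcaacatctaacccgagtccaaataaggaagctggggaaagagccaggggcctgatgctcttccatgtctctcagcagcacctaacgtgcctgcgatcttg
Hopx, internal start, chr5:77095268-77095517: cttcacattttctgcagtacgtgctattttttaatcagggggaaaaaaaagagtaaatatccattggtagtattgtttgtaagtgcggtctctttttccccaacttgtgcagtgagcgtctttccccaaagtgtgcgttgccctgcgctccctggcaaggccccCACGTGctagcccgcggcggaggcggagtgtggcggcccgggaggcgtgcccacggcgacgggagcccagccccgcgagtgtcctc
Prdm1, internal start, chr10:44458749-44458998: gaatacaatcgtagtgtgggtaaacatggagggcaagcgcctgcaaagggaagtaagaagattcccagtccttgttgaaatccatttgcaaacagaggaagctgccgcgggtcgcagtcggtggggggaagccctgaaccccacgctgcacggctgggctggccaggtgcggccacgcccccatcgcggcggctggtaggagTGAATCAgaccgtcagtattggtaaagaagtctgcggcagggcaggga

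The window before the internal Hopx start held a CACGTG that begins 86 bases upstream of the start. The outer Hopx window held none of the 4 motifs, which says only that these letters are not in that window. The Prdm1 window held a TGANTCA, with A at the open base, that begins 48 bases upstream. Of 32851 such windows in the table, 6.02% held CACGTG, 6.75% TGANTCA, 3.33% GGTGTGA and 0.511% AAAGTGAAA. A match is a description of letters and not a measured binding site. Hopx also overlaps the antisense gene Hopxos (245 UMIs over all barcodes) and Bhlhe40 the antisense gene 0610040F04Rik (93 UMIs), and no source used here gives whether counting used the strand.

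Zfp683, Hopx and Prdm1 RNA was lower in BALB/c than in B6 when all kept cells of a library were summed. Zfp683 stood at 10.3 and 18.5 CPM in BALB/c libraries, against 156.5 and 159.9 CPM in B6 libraries (14.4 ± 5.75 against 158.2 ± 2.43, SD, n = 2 each). Hopx stood at 19.1 and 36.6 CPM in BALB/c, against 178.7 and 166.6 CPM in B6. The strains did not overlap, and in both genes the BALB/c libraries lay farther apart from each other, in proportion, than the B6 libraries. The log2 fold change was -3.42 for Zfp683 (SE 0.31, adjusted p = 0.0189) and -2.59 for Hopx (SE 0.34, adjusted p = 0.0313) by edgeR's quasi-likelihood test with Benjamini-Hochberg adjustment over all genes. Prdm1 was sparse, with 0.757 and 1.12 CPM in BALB/c, against 4.58 and 5.01 CPM in B6, and fell by 2.31 on the log2 scale (SE 0.30, edgeR adjusted p = 0.0306). Bhlhe40 stood at 10.02 and 13.6 CPM in BALB/c, against 22.5 and 28.7 CPM in B6, again without overlap. Its log2 fold change of -1.08 (SE 0.20) missed the threshold of 0.05, with an edgeR adjusted p = 0.0551. In this comparison 7.39% of the 12882 genes tested were called, 3.67% higher and 3.72% lower in BALB/c. The 3 calls were lost without either BALB/c library: without BALB/c 1 the edgeR adjusted p was 0.166 for Zfp683, 0.222 for Hopx and 0.332 for Prdm1, and without BALB/c 2 it was 0.107, 0.112 and 0.208. Bhlhe40 stood at -1.20 without B6 1 and at -0.93 without B6 2. It was called in these fits, where a single B6 library gives no spread within B6.

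The sums over all cells mix classes, and in them fewer cells of a class and less RNA per cell cannot be told apart. Most of the RNA of Zfp683 and Hopx came from 1 class. iNKT1-like cells gave 71.1% and 85.9% of the Zfp683 UMIs in BALB/c, against 80.3% and 79.7% in B6. They gave 96.7% and 97.7% of the Hopx UMIs in BALB/c, against 87.04% and 85.1% in B6. For Bhlhe40 the share from iNKT1-like cells was 44% and 63.6% in BALB/c, where iNKT17-like cells gave another 28.9% and 17.2%, and 81.9% in each B6 library. iNKT1-like cells made up 15.1% and 31.9% of kept cells in BALB/c, against 58.5% and 65.9% in B6. With 6 classes held at 1 set of shares in every library, the log2 ratio of BALB/c over B6 was -1.65 for Zfp683, -0.58 for Hopx, -0.78 for Prdm1 and 0.23 for Bhlhe40. In the plain sums over all kept cells it was -3.46, -2.63, -2.35 and -1.12. Those sums weight each class by its UMIs and hold cells outside the 6 classes, whereas the equal shares are shares of cells. The gap between these sets of ratios therefore does not reflect class shares alone. These ratios are descriptions with no test. For Bhlhe40 the value near 0 at equal shares was smaller still with classes taken by marker score, 0.03 (24.02 CPM in BALB/c, against 23.6 CPM in B6).

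**Figure D1:**
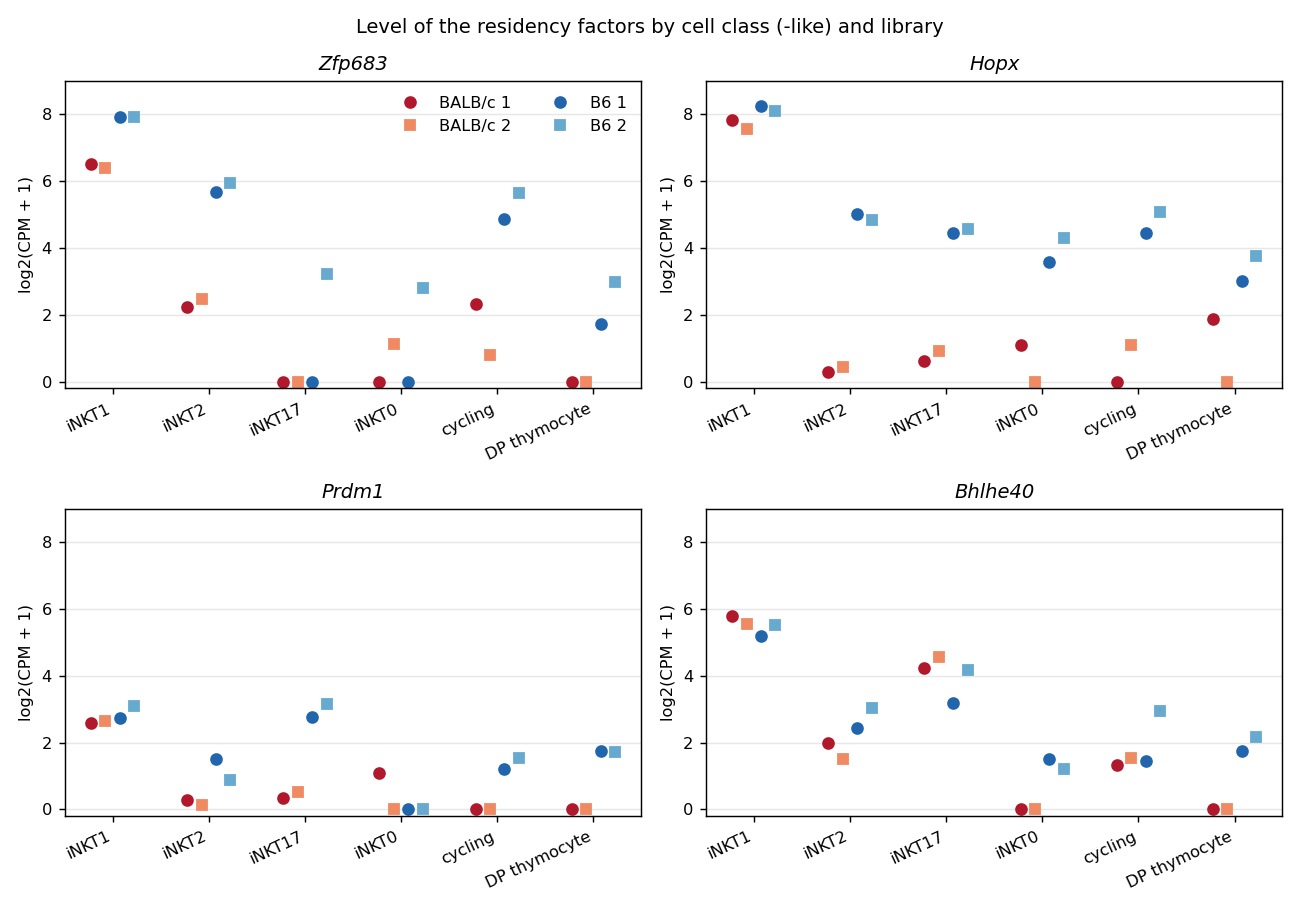
Level of each residency factor, as log2(CPM + 1), in 6 cell classes (x axis), with 1 point per library: red and orange for BALB/c 1 and 2, dark and light blue for B6 1 and 2. Among the 6 classes of each BALB/c library, all 4 genes are highest in iNKT1-like cells. In B6 this holds for all but Prdm1, which lies slightly higher in iNKT17-like cells. Bhlhe40 is second highest in iNKT17-like cells in all libraries, and Hopx in the classes other than iNKT1-like lies higher in B6 than in BALB/c.

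Zfp683, for Hobit, was highest in iNKT1-like cells among the 6 classes in all 4 libraries. Its level in iNKT1-like cells was 90.9 and 83.9 CPM in BALB/c, against 243.5 and 244.1 CPM in B6 (87.4 ± 4.94 against 243.8 ± 0.402, SD, n = 2 each). The strains were far apart relative to the spread of either. In iNKT2-like cells it stood at 3.76 and 4.62 CPM in BALB/c, against 50.4 and 60.8 CPM in B6, and again no library of one strain reached the other strain. In iNKT17-like cells no UMI was found in 320 and 182 BALB/c cells or in 67 cells of B6 1, and 17 UMIs were found in 165 cells of B6 2. Against a floor of 3 counts over the strain's libraries, the summed counts put Zfp683 11.5-fold lower in BALB/c iNKT17-like cells. The exact counting interval for the fold, from the counts without the floor, had a lower limit of 8.41. B6 2 alone gave the B6 UMIs, so these counts set no minimum that both B6 libraries share. That holds for classes taken by cluster: with classes taken by marker score Zfp683 stood at 0.298 and 0.478 CPM in BALB/c iNKT17-like cells, against 22.8 CPM (20 UMIs) and 22.2 CPM (50 UMIs) in B6 1 and B6 2. Cycling cells had 3.98 and 0.751 CPM in BALB/c, against 28.5 and 49.1 CPM in B6. In B6 the mean of cycling cells was 38.8 ± 14.6 CPM and that of iNKT2-like cells 55.6 ± 7.36 CPM (SD, n = 2 libraries each), a gap close to the SD of the cycling cells, and in BALB/c 1 cycling and iNKT2-like cells were at nearly the same level. In iNKT0-like cells and double-positive thymocyte-like cells Zfp683 was at or below 6.91 CPM in each library.

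The strain difference of Zfp683 passed the test within iNKT1-like and within iNKT2-like cells. It was -1.43 in iNKT1-like cells (SE 0.14, edgeR adjusted p = 0.00489), where 3.26% of 10674 genes were called, 1.85% higher and 1.41% lower. It was -3.64 in iNKT2-like cells (SE 0.16, edgeR adjusted p = 0.000735), where 10.3% of 11655 genes were called, 4.41% higher and 5.85% lower. The strain effect in iNKT1-like cells minus that in iNKT2-like cells was 2.24 on the log2 scale (SE 0.17, edgeR adjusted p = 3.6e-09 for the interaction), with 10.7% of 12225 genes called, 5.53% upward and 5.2% downward. The iNKT1-like call was lost without BALB/c 1 (-1.45, edgeR adjusted p = 0.226) and without BALB/c 2 (-1.40, edgeR adjusted p = 0.313). The iNKT2-like call and the interaction remained past the threshold without any 1 library.

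Shares of iNKT1-like cells with at least 1 Zfp683 UMI gave the same order. After each cell was thinned to 3000 UMIs, the share was 21.1% and 18.7% in BALB/c, against 47.8% and 48.97% in B6. The strains differed by -28.5 percentage points, with an exact two-sided permutation p = 0.333, which is the smallest value that 2 against 2 libraries can give. Without thinning the shares were 38.7% and 38.4% in BALB/c, against 76.9% and 70.1% in B6. In iNKT2-like cells the thinned share was 0.691% and 1.003% in BALB/c, against 14.8% and 16.01% in B6. Free RNA in droplets puts UMIs into cells that do not make them, so double-positive thymocyte-like cells served as a background. Their thinned Zfp683 share was 0 of 35 and 0 of 68 cells in BALB/c, 0 of 49 cells in B6 1 and 2% of 100 cells in B6 2 (exact 95% interval 0.243% to 7.04%). The B6 2 share in iNKT2-like cells (interval 14.1% to 18.04%) lay above that interval. Median UMIs per cell before thinning were 14738 and 13973 in B6 iNKT2-like cells and 2400.5 and 2687 in B6 double-positive thymocyte-like cells. All such intervals cover counting error only.

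Prdm1, for Blimp-1, was detected in few cells, and its strain difference was called in iNKT17-like cells and not in the other classes tested. In iNKT1-like cells it stood at 4.96 and 5.23 CPM in BALB/c, against 5.72 and 7.51 CPM in B6, a log2 fold change of -0.31 that did not pass the test (SE 0.31, edgeR adjusted p = 0.692). The gap between the strain means was close to the SD of the B6 pair, 5.09 ± 0.192 CPM in BALB/c, against 6.61 ± 1.27 CPM in B6. At 3000 UMIs per cell the share of iNKT1-like cells with a UMI was 1.51% and 1.68% in BALB/c, against 1.51% and 2.21% in B6. In iNKT17-like cells Prdm1 stood at 0.275 and 0.44 CPM in BALB/c, against 5.76 and 7.86 CPM in B6, so that B6 iNKT17-like cells reached the level of iNKT1-like cells and those of BALB/c did not. This rests on 2 Prdm1 molecules counted in BALB/c cells and 21 in B6 cells, a level 21.4-fold lower in BALB/c with a 95% counting interval of 5.23 to 188. The log2 fold change was -4.17 (SE 0.74, edgeR adjusted p = 0.0101), where 4.88% of 9392 genes were called, 2.45% higher and 2.43% lower. The call was lost without BALB/c 1 (edgeR adjusted p = 0.172), without BALB/c 2 (edgeR adjusted p = 0.104) and with DESeq2 (adjusted p = 0.147), and without B6 2 the gene did not pass the filter on low counts.

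In iNKT2-like cells Prdm1 was counted 4 times in BALB/c cells and 25 times in B6 cells, and its log2 fold change of -2.56 was not called (SE 0.79, edgeR adjusted p = 0.11). The strain effect in iNKT1-like minus that in iNKT2-like cells was 2.13 (SE 0.83, edgeR adjusted p = 0.116 for the interaction). It was called with the replicate block (2.68, edgeR adjusted p = 0.0406), where the class sums come from the same 4 libraries, and no such difference was tested for iNKT17-like cells. Double-positive thymocyte-like cells had no Prdm1 UMI in the BALB/c libraries and 1 and 2 UMIs in the B6 libraries, which is 2.35 and 2.30 CPM. At 3000 UMIs per cell their B6 share was 0% (interval 0% to 7.25%) and 2% (0.243% to 7.04%). The share in B6 iNKT17-like cells was 3.08% (0.375% to 10.7%) and 3.09% (1.01% to 7.06%). At that depth Prdm1 in B6 iNKT17-like cells was thus not separable from this background. Jchain, Mzb1, Xbp1 and Derl3, the fixed markers of plasma cells, which also use Blimp-1, summed over all kept cells to 90.1 and 93.4 CPM in BALB/c, against 164.6 and 81.2 CPM in B6, with none of the 4 at 0. In iNKT17-like cells they summed to 129 and 120.1 CPM in BALB/c, against 73.8 and 107.6 CPM in B6, with Jchain and Mzb1 at 0 in all 4 libraries. There the sums were higher in BALB/c without overlap, while Prdm1 was lower. Their part in the Prdm1 values was not tested.

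**Figure D2:**
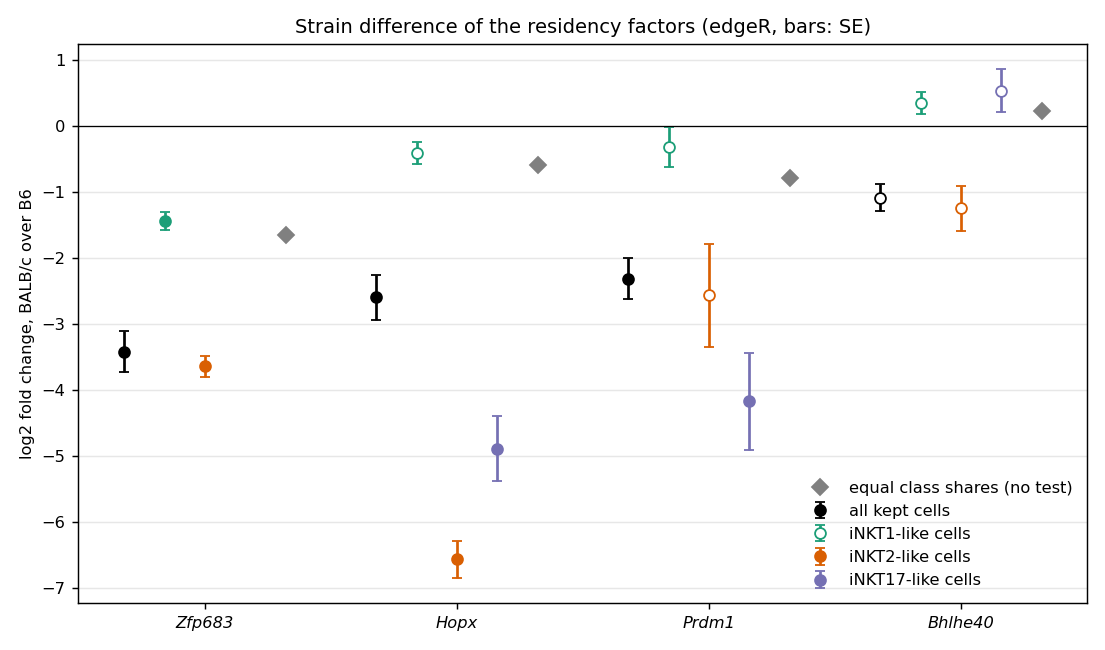
Log2 fold change of BALB/c over B6 for each residency factor in sums of all kept cells and of each of 3 iNKT classes, with bars for the SE, filled circles for an adjusted p under 0.05 and diamonds for the ratio at equal class shares. Zfp683 lies lowest of the 4 genes in iNKT1-like cells (-1.43), Hopx lowest in iNKT2-like cells (-6.56), and Bhlhe40 is above 0 in iNKT1-like and iNKT17-like cells.

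Hopx was lower in BALB/c by a far larger fold in iNKT2-like cells than in iNKT1-like cells, where its difference did not pass the test. In iNKT1-like cells it stood at 228.6 and 189.2 CPM in BALB/c, against 301.3 and 271.5 CPM in B6 (208.9 ± 27.9 against 286.4 ± 21.1, SD, n = 2 each). The strains did not overlap, yet the log2 fold change of -0.41 did not pass the test (SE 0.17, edgeR adjusted p = 0.317). It was -0.27 without B6 1 and -0.57 without B6 2. It passed in these fits, where a single B6 library gives no spread within B6. At 3000 UMIs per cell 45.7% and 39.2% of BALB/c and 54.7% and 51.8% of B6 iNKT1-like cells had a Hopx UMI, a difference of -10.8 points (exact two-sided permutation p = 0.333, the smallest possible).

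In iNKT2-like cells Hopx was counted 3 and 4 times in the BALB/c libraries and 119 and 605 times in those of B6, which is 0.221 and 0.349 CPM against 31.2 and 27.8 CPM. It was 101-fold lower in BALB/c, with a 95% counting interval of 48.97 to 253, and the log2 fold change was -6.56 (SE 0.28, edgeR adjusted p = 0.000702). In iNKT17-like cells it stood at 0.549 and 0.879 CPM in BALB/c, against 20.7 and 22.6 CPM in B6, a log2 fold change of -4.89 (SE 0.49, edgeR adjusted p = 0.000403). These calls held without any 1 library. The strain effect in iNKT1-like cells exceeded that in iNKT2-like cells by 6.19 (SE 0.26, edgeR adjusted p = 1.33e-13 for the interaction).

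Hopx UMIs were also found in B6 double-positive thymocyte-like cells, the class taken as background. These had 7.04 and 12.7 CPM and B6 iNKT0-like cells 10.9 and 18.6 CPM, against at most 2.70 CPM in those classes in BALB/c. At 3000 UMIs per cell the B6 share was 6.73% and 7.79% in iNKT2-like cells, 6.15% and 6.17% in iNKT17-like cells, and 0% of 49 and 5% of 100 double-positive thymocyte-like cells (interval 1.64% to 11.3% in B6 2). At that depth the Hopx share in B6 iNKT2-like and iNKT17-like cells was not separable from this background. At 2000 UMIs per cell, which keeps more shallow cells, the share in iNKT2-like cells was 6.11% in B6 2 (interval 4.91% to 7.49%), above the 1.59% of double-positive thymocyte-like cells (interval 0.434% to 4.01%), and in B6 1 the intervals overlapped. Per cell and without thinning, Hopx had 0.531 and 0.428 UMIs in B6 iNKT2-like cells, 0.269 and 0.279 in B6 iNKT17-like cells, and 0.0183 and 0.0362 in B6 double-positive thymocyte-like cells. The ratio of Zfp683 to Hopx UMIs was 1.61 and 2.18 in B6 iNKT2-like cells and 0.808 and 0.899 in B6 iNKT1-like cells, so the pair did not keep 1 ratio across these classes.

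Summed markers of iNKT1 cells moved with the Hopx and Zfp683 difference in iNKT2-like cells. The 14 fixed iNKT1 markers, among them Tbx21, Cxcr3 and Il2rb, summed to 576 and 597 CPM in BALB/c iNKT2-like cells, against 1096 and 1116 CPM in B6 iNKT2-like cells, with none of the 14 at 0 in any library. Other lists moved with it in the same cells. The 10 fixed cycling markers summed to 252 and 298 CPM in BALB/c iNKT2-like cells, against 562 and 527 CPM in B6, with none at 0. The 8 double-positive thymocyte markers summed there to 5.67 and 5.06 CPM in BALB/c, against 36.2 and 29.05 CPM in B6, with Rag2 and Ptcra at 0 in BALB/c 2 and Rag1, Rag2 and Ptcra at 0 in B6 1. The 11 interferon-response markers summed to 906 and 840 CPM in BALB/c, against 1167 and 1373 CPM in B6. In iNKT17-like cells the iNKT1 list summed to 509 and 493 CPM in BALB/c, against 402 and 561 CPM in B6, so there the strains overlapped, with 4 and 5 of its genes at 0 in BALB/c, against 4 and 1 in B6. In double-positive thymocyte-like cells it summed to 78.2 and 63.3 CPM in BALB/c, against 140.7 and 293.8 CPM in B6. The part of cells of these kinds, of free RNA and of doublets in the Hopx and Zfp683 values was not tested.

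The Zfp683 difference in iNKT2-like cells was present within each of their clusters. In cluster 3 Zfp683 stood at 3.52 and 3.40 CPM in BALB/c, against 39.0 and 38.1 CPM in B6. In cluster 2 it stood at 5.26 and 7.73 CPM in BALB/c, against 39.3 and 59.99 CPM in B6, where the BALB/c values rest on 3 and 5 UMIs in 30 cells each. In cluster 15, led by Izumo1r, Rgs16 and Arl4d, with Cxcr3 among its leading genes, it stood at 14.98 and 51.4 CPM in BALB/c, against 108.2 and 107.4 CPM in B6, and the BALB/c values rest on 3 UMIs in 20 cells and 12 UMIs in 24 cells. B6 was higher in each of the 3 clusters. Hopx in cluster 3 stood at 0.156 and 0.378 CPM in BALB/c, against 32.5 CPM in B6 1, with 0 UMIs in the 32 cells of B6 2.

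Bhlhe40 had the higher mean in BALB/c iNKT1-like cells, unlike the other 3 genes, but the difference did not pass the test. It stood at 54.5 and 45.6 CPM in BALB/c, against 35.8 and 45.1 CPM in B6 (50.1 ± 6.29 against 40.4 ± 6.58, SD, n = 2 each), with a gap between the nearest libraries smaller than the spread within either strain. The log2 fold change was 0.35 (SE 0.16, edgeR adjusted p = 0.376). It was called without B6 2 (0.43), where a single B6 library gives no spread within B6. In iNKT17-like cells it stood at 17.8 and 22.9 CPM in BALB/c, against 8.07 and 17.2 CPM in B6, and the log2 fold change of 0.54 did not pass (SE 0.33, edgeR adjusted p = 0.444). In iNKT2-like cells it was low, at 2.95 and 1.83 CPM in BALB/c, against 4.46 and 7.23 CPM in B6. The log2 fold change there was -1.25 (SE 0.34, edgeR adjusted p = 0.0826). It was called without B6 1 (-1.39), where only the BALB/c libraries give a spread. It was also called with classes taken by marker score (-2.62, edgeR adjusted p = 0.0106) and without the low-count filter (-1.23, edgeR adjusted p = 0.00522). The strain effect differed between iNKT1-like and iNKT2-like cells by 1.64 (SE 0.25, edgeR adjusted p = 6.22e-05 for the interaction), and this difference was called without any 1 library.

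Within iNKT1-like cells Zfp683 and Hopx did not peak in the same clusters. Cluster 16, which Ccl5 and Gzma led and which holds 3 cells of each BALB/c library, had 486.3 and 447.2 CPM of Hopx and 159.2 and 172.5 CPM of Zfp683 in B6 1 and B6 2. In clusters 7, 8 and 9 the B6 libraries had between 159.8 and 349.5 CPM of Hopx and between 235.1 and 280.3 CPM of Zfp683. Cluster 1, which holds cells of few UMIs from B6 2, had 64.5 CPM of Hopx and 259.9 CPM of Zfp683. BALB/c cluster 6, also led by Ccl5 and Gzma, had 233.8 and 190.4 CPM of Hopx and 90.2 and 83.9 CPM of Zfp683. The 22 cells of B6 1 in cluster 6 had 279.7 CPM of each gene, so Zfp683 was higher in these few B6 cells than in BALB/c cells of the same cluster. At a finer resolution (1.5) the BALB/c cells fell into 3 clusters with at least 20 cells of each library, 1 with 303.2 and 248.2 CPM of Hopx and 83.3 and 67.4 CPM of Zfp683 and another with 155.3 and 133.8 CPM of Hopx and 102.7 and 102.9 CPM of Zfp683. The smallest, of 26 and 39 cells, had 35.2 and 17.98 CPM of Hopx and 15.1 and 59.9 CPM of Zfp683. Both genes were lower there than in the other 2, but these values rest on 7 and 6 Hopx UMIs and 3 and 20 Zfp683 UMIs.

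**Figure D3:**
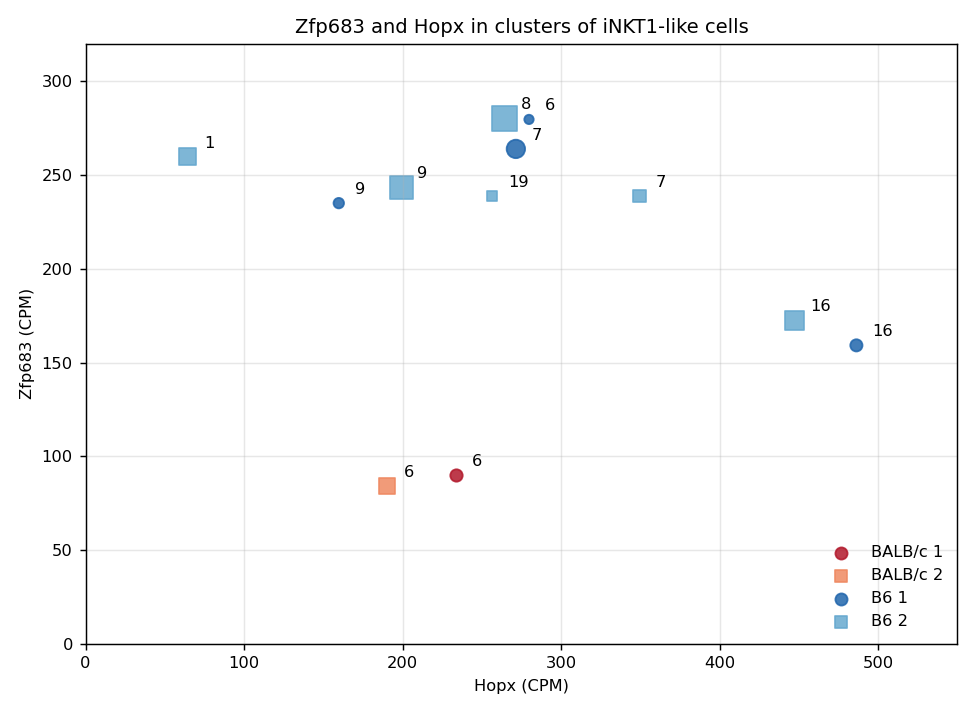
Hopx (x axis) and Zfp683 (y axis) in CPM for each cluster of iNKT1-like cells with at least 20 cells in a library, numbered by cluster, with symbol area growing with the number of cells. The BALB/c points sit at 83.9 and 90.2 CPM of Zfp683, below all B6 points, and B6 cluster 16 has the highest Hopx (447.2 and 486.3 CPM) and the lowest Zfp683 of the B6 points.

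The same pattern was seen when iNKT1-like cells were divided by a UMI of Ccl5, a chemokine of cytotoxic lymphocytes, at 3000 UMIs per cell. A Hopx UMI was found in 54.4% and 50.4% of BALB/c cells with Ccl5 and in 66.6% and 65.9% of B6 cells with Ccl5. Without Ccl5 the shares were 36.4% and 30.4% in BALB/c, against 50.5% and 48.4% in B6. Hopx was thus higher in the cells with Ccl5 in 4 of 4 libraries, and the exact 95% intervals of the 2 kinds of cell did not overlap in any library. Zfp683 went the other way in 4 of 4 libraries, with 16.2% and 16.9% of BALB/c and 43.9% and 44.96% of B6 cells with Ccl5, against 26.4% and 20% of BALB/c and 49.2% and 49.9% of B6 cells without it. Its intervals overlapped in 3 libraries and did not in B6 2. Median UMIs of cells with and without Ccl5 were 6588 and 6942 in BALB/c 2, where they lay farthest apart, and 6871 and 6872 in B6 2. Cells of 1 library are not replicates, so no test was made. Ccl5-bearing cells were 51.3% and 43.7% of these cells in BALB/c, against 25.9% and 19.2% in B6, and the Zfp683 gap between the strains stood on both sides of the split.

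**Figure D4:**
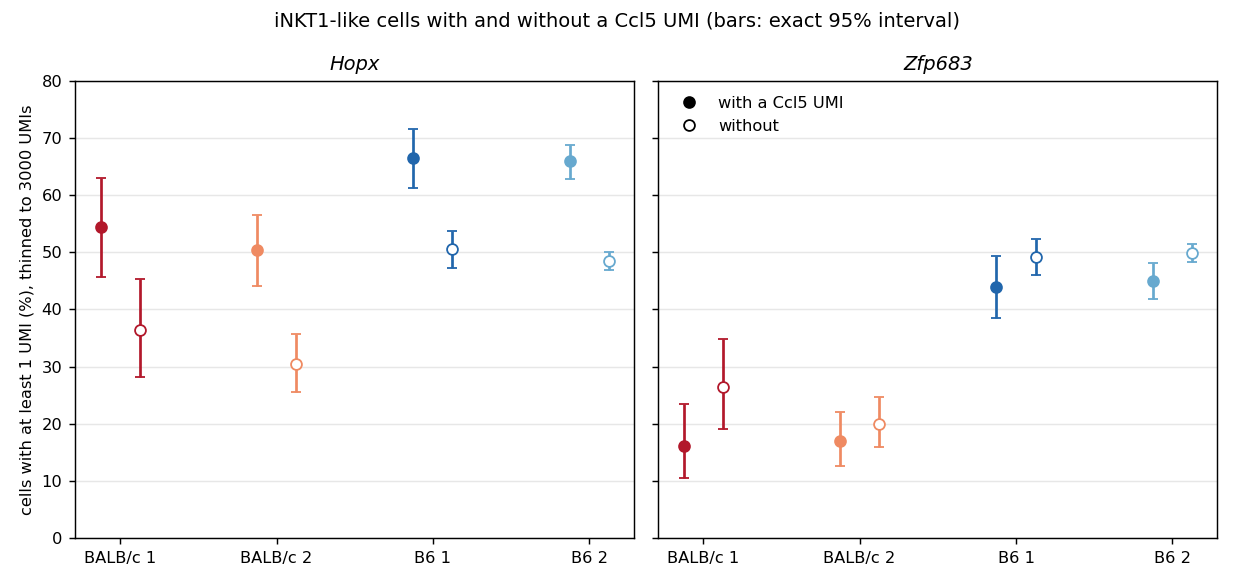
Percent of iNKT1-like cells with at least 1 UMI of Hopx (left) or Zfp683 (right) after thinning to 3000 UMIs, by library, with filled circles for cells with a Ccl5 UMI, open circles for cells without one, and bars for the exact 95% interval. Hopx is higher with Ccl5 in all 4 libraries (54.4% against 36.4% in BALB/c 1), and Zfp683 is lower (16.2% against 26.4%).

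Per iNKT1-like cell, a Hopx UMI was about as frequent with a Zfp683 UMI as without one. At 3000 UMIs a Hopx UMI was found in 46.4% and 36.9% of BALB/c and 56.9% and 52.4% of B6 iNKT1-like cells with a Zfp683 UMI. In iNKT1-like cells without Zfp683 it was found in 45.5% and 39.7% in BALB/c, against 52.6% and 51.3% in B6. The mean number of the 4 genes detected per iNKT1-like cell was 0.842 and 0.719 in BALB/c, against 1.13 and 1.15 in B6. In iNKT2-like cells it was 0.0173 and 0.0129 in BALB/c, against 0.22 and 0.269 in B6, without overlap of the strains.

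Genes with the most similar pattern were ranked by Pearson's r of log2(CPM + 1) over 24 sums, 6 classes in each of 4 libraries, which share libraries and depth. Zfp683 ran closest to Cxcr3, a chemokine receptor (r = 0.976), Tbx21 (0.947), Samd3 (0.943), Ifitm10 (0.94) and Ms4a6b (0.935). Hopx ran closest to Fgl2 (0.951), Gzmb, which encodes a cytotoxic protease (0.921), Slamf7 (0.911), Klrc2 (0.908) and Nkg7 (0.894). For Prdm1 the closest were Serpinb6b (0.869), Leprotl1 (0.837), Ripor2 (0.828), Fgl2 (0.828) and Rgs1 (0.819). For Bhlhe40 they were Akna (0.933), Ehd3 (0.929), Tnfsf14 (0.912), Rgs1 (0.91) and Cd7 (0.904). With class means taken out, r ran from 0.823 to 0.956 for the genes beside Zfp683 and from 0.822 to 0.905 beside Hopx. It ran from 0.637 to 0.786 beside Prdm1 and from 0.575 to 0.740 beside Bhlhe40. Cxcr3, Tbx21 and Nkg7 also stand in the iNKT1 marker list used to name the classes. Among the 4 genes themselves r was 0.827 for Zfp683 with Hopx and 0.618 for Zfp683 with Bhlhe40. None of these values carries a test.

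Genes that factors of this kind are known to repress were set beside them. The list of egress and recirculation genes had 6 of 17 tested members higher and 0 lower in BALB/c iNKT1-like cells, where 1.85% of all genes were called higher, and its median log2 fold change was 0.36 against -0.03 over all genes. Levels of list genes are CPM on TMM-scaled library sizes. Klf2, the factor that switches on exit receptors, stood at 620.7 and 695.3 CPM in BALB/c, against 262 and 199.8 CPM in B6 iNKT1-like cells (log2 fold change 1.51, SE 0.18, edgeR adjusted p = 0.0103). The integrin subunit Itga4 rose by 1.93, the T-box gene Eomes by 6.37, Klf3 by 1.12 and Tcf7 by 0.80. S1pr1, the receptor for the exit signal sphingosine 1-phosphate, stood at 13.9 and 9.32 CPM in BALB/c, against 9.20 and 8.41 CPM in B6, and it was not called (0.36, SE 0.29, edgeR adjusted p = 0.628), nor was Ccr7 (0.14, edgeR adjusted p = 0.955).

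In iNKT2-like cells the same list went the other way. There 8 of 16 tested members were lower in BALB/c and a single one, Tcf7, was higher, where 5.85% of all genes were called lower and 4.41% higher, and the median was -0.58 against -0.02 over all genes. Klf2 stood at 73.9 and 81.6 CPM in BALB/c, against 162 and 156.6 CPM in B6 (-1.03, SE 0.10, edgeR adjusted p = 0.00481). S1pr1 stood at 15.96 and 16.9 CPM in BALB/c, against 33.95 and 41.1 CPM in B6 (-1.21, SE 0.14, edgeR adjusted p = 0.00849). The strain effect was higher in iNKT1-like than in iNKT2-like cells for 14 of 18 list members tested and lower for 1, with a median difference of 1.16 against -0.04 over all genes. In iNKT2-like cells Klf2 and S1pr1 were thus lower in BALB/c together with Zfp683 and Hopx, whereas in iNKT1-like cells Klf2 was higher in BALB/c and Zfp683 lower. Without either BALB/c library most of these calls were lost, and without either B6 library more members were called in each class. Such fits leave a strain with 1 library, and the number called over all genes also changed widely between them. The list counts of these fits therefore cannot be read by themselves.

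**Figure D5:**
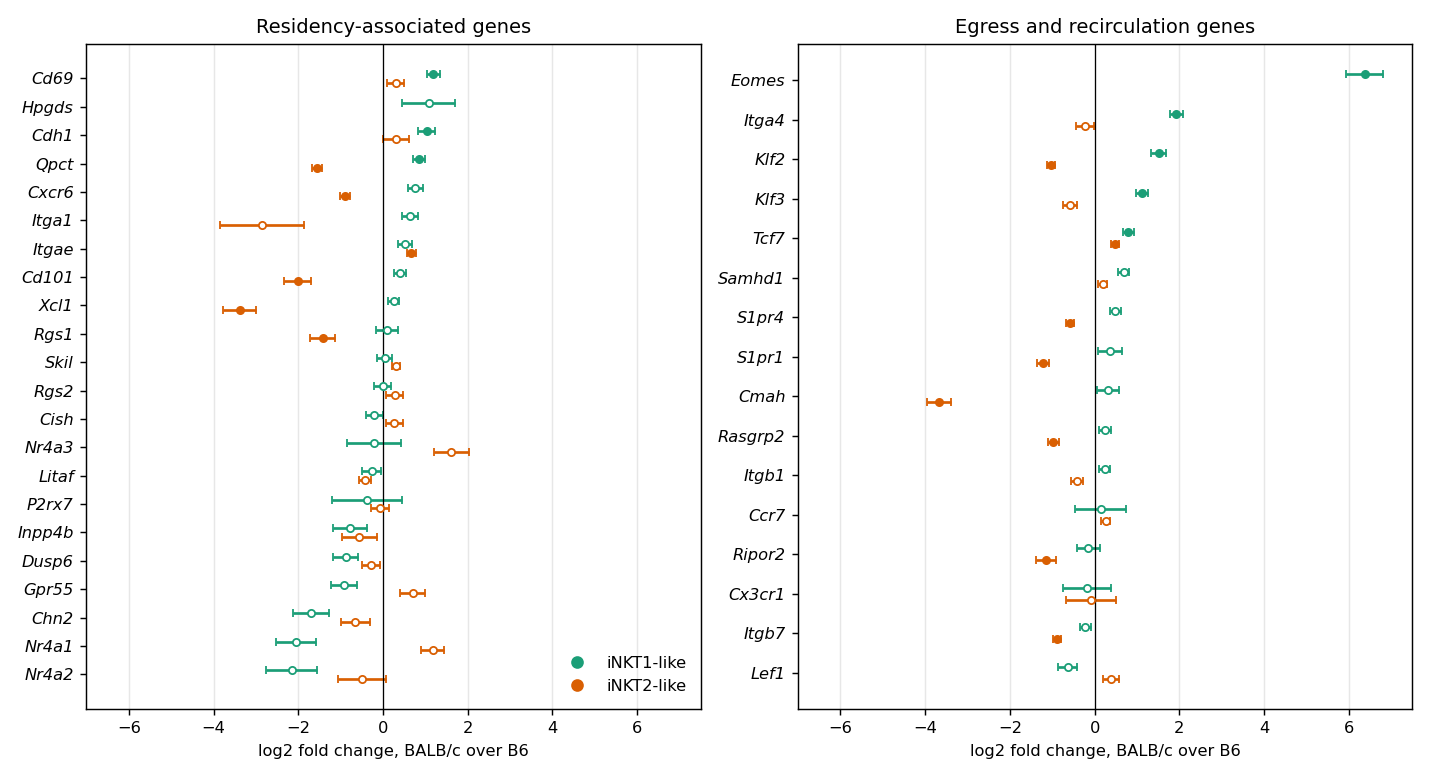
Log2 fold change of BALB/c over B6 for residency-associated genes (left) and egress and recirculation genes (right) in iNKT1-like (green) and iNKT2-like cells (orange), with bars for the SE and filled circles for an adjusted p under 0.05. Klf2 lies at 1.51 in iNKT1-like cells and at -1.03 in iNKT2-like cells, and S1pr1 at 0.36 and -1.21.

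No residency-associated surface or signalling gene was called lower together with Zfp683 in BALB/c iNKT1-like cells. Of 22 tested, 3 were higher in BALB/c and none lower, where 1.85% of all genes were called higher and 1.41% lower. The 3 were Cd69, which holds cells in a tissue by removing S1PR1 from the surface, at 1.19 (SE 0.15, edgeR adjusted p = 0.0116), Cdh1, for E-cadherin, at 1.03 and Qpct at 0.84. Cd69 stood at 116.7 and 142.1 CPM in BALB/c, against 55.1 and 58.7 CPM in B6. The integrin genes Itgae (0.53) and Itga1 (0.63), the chemokine receptor Cxcr6 (0.76) and the signalling regulator Rgs1 (0.09) did not pass. Without B6 1 Rgs1 turned to -0.23 and without B6 2 it stood at 0.56, and each of these fits rests on a single B6 library. In iNKT2-like cells 5 of 21 were lower, namely Xcl1 (-3.38), Cd101 (-2.01), Qpct (-1.56), Rgs1 (-1.42) and Cxcr6 (-0.90), and Itgae was higher at 0.67, where 5.85% of all genes were called lower and 4.41% higher. With classes taken by marker score Itgae turned to -0.20 in iNKT2-like cells. Without BALB/c 1, and likewise without BALB/c 2, the calls of this list in the directions given here were lost. Without either B6 library they were not fewer, but the number called over all genes also changed widely between such fits.

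Among factors and receptors known to induce one or more of the 4 genes, few passed the test in iNKT1-like cells. Of 21 tested, Eomes alone was called, where 1.85% of all genes were called higher. The level of Tbx21 was 176.7 and 152.6 CPM in BALB/c, against 161.4 and 180.0 CPM in B6 (log2 fold change -0.06, SE 0.15, edgeR adjusted p = 0.908). Il2rb, a subunit of the interleukin 15 receptor, had a log2 fold change of 0.0014 (edgeR adjusted p = 0.999), and Runx3 one of 0.27 (edgeR adjusted p = 0.543). In iNKT2-like cells 4 of 20 were lower in BALB/c and a single one, Ahr (1.82), was higher, where 5.85% of all genes were called lower and 4.41% higher. Tbx21 stood there at 7.94 and 6.92 CPM in BALB/c, against 39.8 and 45.8 CPM in B6 (-2.53, SE 0.15, edgeR adjusted p = 0.00145), and Il2rb fell by 1.10, Stat4 by 2.60 and Il12rb2 by 3.82.

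Of 8 opposing factors, 2 were higher in BALB/c and none lower in iNKT1-like cells (Klf2 and Tcf7), where 1.85% of all genes were called higher. In iNKT2-like cells 2 were higher and 1 lower, beside 4.41% and 5.85% of all genes. Bach2 (-1.35, edgeR adjusted p = 0.38) and Bcl6 (-0.40, edgeR adjusted p = 0.831) were not called in iNKT1-like cells. Of the reported Blimp-1 targets, 1 of 7 tested was higher in iNKT1-like and 1 of 6 in iNKT2-like cells, Tcf7 in both, beside the same shares of all genes. By edgeR no paralog or family member was called among 8 tested in iNKT1-like and 11 tested in iNKT2-like cells. At an unadjusted p under 0.05 these counts were 1 and 2, and DESeq2 called 1 and 2. Of the further plasma cell genes, Sdc1, for the surface proteoglycan syndecan 1, was the 1 of 4 that was lower in BALB/c iNKT2-like cells, where 5.85% of all genes were. Over all kept cells 3 opposing factors rose in BALB/c, namely Id3, Myb and Tcf7, of 8 tested, where 3.67% of all genes rose. In iNKT17-like cells 3 of 15 residency-associated genes fell (Rgs1, Chn2 and Qpct) and none rose, and of 12 egress genes S1pr1 and Ripor2 fell and Lef1 rose, where 2.43% of 9392 genes fell and 2.45% rose. There S1pr1 fell by 2.997 and Rgs1 by 2.63 on the log2 scale, beside the Hopx and Prdm1 differences above. Klf3, Stat4, Il12rb2, Ahr, Xcl1, Cd101, Chn2, Ripor2, Lef1, Id3, Myb and Sdc1 were named after their values were seen. Klf2, Tcf7 and Eomes stand in more than 1 list.

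The file of B6 2 names Cell Ranger 7.1.0 in its header and those of the other 3 libraries 6.0.0. Zfp683 in B6 2 over B6 1 differed by -0.03 on the log2(CPM + 1) scale over all kept cells and by -0.15 in iNKT1-like cells, Hopx by -0.17 and -0.30, and Prdm1, the gene of the 4 with the most intronic bases, by 0.05 and 0.21. Bhlhe40 differed by 0.27 and 0.18. The median size of that difference over all genes tested was 0.18 and 0.23. In iNKT2-like cells, with a median size of 0.22, Zfp683 differed by 0.15, Hopx by -0.28, Prdm1 by -0.69 and Bhlhe40 by 0.49. In iNKT17-like cells, with a median size of 0.30, Hopx differed by -0.02, Prdm1 by 0.27 and Bhlhe40 by 0.88. The strain differences of Zfp683, Hopx and Prdm1 over all cells were -3.43, -2.67 and -2.27 without B6 2, close to those with it.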

How the data were processed

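Thymic cells sorted as iNKT cells were sequenced in 2 BALB/c and 2 B6 libraries. The deposited matrices hold whole-number UMI counts per gene and cell, made with Cell Ranger on mm10 per the submitters' processing notes, which name version 7.1.0. The matrix headers name 6.0.0 for 3 libraries and 7.1.0 for B6 2. For intronic reads and strand, the counting setting was not given in the sources used here. Library totals ran from 20406245 to 82904358 UMIs.

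Barcodes with at least 500 genes, at least 1000 UMIs and at most 10% mitochondrial UMIs were kept, and the highest-scoring simulated-doublet neighbours were removed at 0.8% per 1000 barcodes. Cells were clustered with scanpy 1.11.5 (2000 variable genes without the 4 genes, 30 components, 15 neighbours, Leiden resolution 1). A cluster was named where at least 3 markers and 40% of a list exceeded a log2 fold of 0.5 with a mean of at least 0.3, giving 21 clusters, 1 of them unnamed. Rebuilt names may differ from those of the study.

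Counts were summed per library and class and tested over all genes with edgeR 4.0.16 (quasi-likelihood, TMM, low-count filter, Benjamini-Hochberg threshold 0.05), with DESeq2 1.42.0 as an alternative. The SE is the size of the log2 fold change over the square root of F. A difference of strain effects came from an interaction term. The edgeR steps were tested on simulated data. Shares used cells thinned to 3000 UMIs, and exact (Clopper-Pearson) 95% intervals and the floor of 3 counts cover counting error only. The named list genes were those fixed by rule, with up to 3 of lowest p among the called genes of each list in iNKT1-like cells. The 4 genes and all lists were chosen with earlier results of these data known. A single egress gene, included in the list counts, is not reported here by itself. Replicate numbers are not known to pair libraries.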

Additional observations from a re-analysis of the deposited data

Results flagged for a closer look

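The strain effect, BALB/c over B6, differed between iNKT1-like and iNKT2-like cells for 3 of the 4 genes by the interaction term of edgeR, and these differences are given here for that reason. For Zfp683 the effect in iNKT1-like cells was 2.24 above that in iNKT2-like cells on the log2 scale, for Hopx 6.19 above it and for Bhlhe40 1.64 above it. Bhlhe40 was higher in BALB/c in the one class and lower in the other, and neither difference passed the test by itself with classes taken by cluster. In iNKT2-like cells it was called with classes taken by marker score (-2.62, edgeR adjusted p = 0.0106) and without the low-count filter (-1.23, edgeR adjusted p = 0.00522). Zfp683 and Hopx were lower in BALB/c in both classes, but the Hopx difference in iNKT1-like cells did not pass the test (-0.41, edgeR adjusted p = 0.317). The iNKT1-like cells of the strains lay mainly in different clusters, 6 in BALB/c and 7, 8, 9 and 16 in B6. Another 770 of those of B6 2 lay in cluster 1, whose cells had few UMIs. Most iNKT2-like cells lay in cluster 3 in both BALB/c libraries and in cluster 2 in B6 2 (1324 of 1413 cells), while those of B6 1 were spread over clusters 2, 3 and 15 (99, 64 and 61 of 224 cells).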

How the results depend on the processing

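The calls of Zfp683, Hopx and Prdm1 over all cells, of Zfp683 in iNKT1-like and of Prdm1 in iNKT17-like cells were lost without either BALB/c library, whereas Zfp683 and Hopx in iNKT2-like cells, Hopx in iNKT17-like cells and the differences of strain effects of Zfp683, Hopx and Bhlhe40 were called in all 4 fits. Over 1271 pairs of a result and an alternative, 1058 were counted as unchanged, 93 lost a call, 73 gained one, 43 moved and 4 reversed. A list gene that changed sign without a call in either fit was counted as unchanged, as was a gene count of similar size. Over all kept cells, 952 genes were called, against 1685 with DESeq2 and 38 with the replicate block. Without 1 library the count ran from 0 to 5166, with Zfp683 from -3.91 to -3.05, Hopx from -3.15 to -2.19, Prdm1 from -2.63 to -2.04 and Bhlhe40 from -1.32 to -0.87. With the block Zfp683 stood at -3.47 (edgeR adjusted p = 0.0549), Hopx at -2.66 (0.0723) and Prdm1 at -2.33 (0.0822). Bhlhe40 was called with DESeq2 (-1.07) and without the low-count filter (-1.09).

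In iNKT1-like cells 1240 genes were called without the filter, 676 with the block, 570 with crossed pairing and 15 to 4166 without 1 library, with Zfp683 from -1.51 to -1.36, Hopx from -0.57 to -0.27 and Bhlhe40 from 0.24 to 0.47. In iNKT2-like cells the counts were 2824 without the filter, 679 with crossed pairing and 78 to 5345 without 1 library, and Bhlhe40 ran from -1.58 to -0.85. Without the filter Prdm1 (-2.68) and Bhlhe40 (-1.23) were called there, as was Bhlhe40 by marker score (-2.62). In iNKT17-like cells the counts were 220 with DESeq2, 1052 without the filter, 783 with the block and 362 to 1752 without 1 library. Prdm1 there ran from -4.41 to -3.75 and missed the threshold with DESeq2 (-4.31). For the difference of strain effects DESeq2 called 488 genes, leaving out 1 library gave 738 to 1682, and Prdm1 was called with the block (2.68). At equal class shares by marker score Zfp683 stood at -1.86, and thinning to 2000 UMIs gave -19.7 points.

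Without the filter, residency-associated calls were 5 in iNKT1-like and 9 in iNKT2-like cells, and by marker score egress calls in iNKT2-like cells were 5. Without 1 library the residency counts ran from 0 to 9 in both classes and the egress counts from 0 to 10 in both. Rgs1 in iNKT1-like cells ran from -0.23 without B6 1, a reversal, to 0.56 without B6 2. By marker score Itgae reversed to -0.20 in iNKT2-like cells, and the differences of strain effects reversed to 0.69 for Itgae and 0.40 for Runx3. The causes were not tested. Same-numbered libraries deviated from their strain means with r = -0.15 over 13302 genes. With 2 libraries per strain this single correlation cannot decide whether the numbers pair the libraries. The crossed pairing and the fit without the low-UMI cluster were chosen after seeing the data.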

Other observations

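Cluster 17, led by interferon-response genes such as Ifit3 and Rsad2, held 2 and 7 cells in BALB/c, against 140 and 573 cells in B6. Its B6 cells had 199.6 and 196.5 CPM of Zfp683 and 232.8 and 242.9 CPM of Hopx, a level near that of B6 iNKT1-like cells. The BALB/c cells were too few for a level.

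Cluster 0, which stayed without a name and had 0.22 times the median UMIs of its cells' own libraries, held 43 and 3 cells in BALB/c, against 178 and 16 cells in B6. Zfp683 stood there at 83.3 CPM in BALB/c 1, against 459 CPM in B6 1, and Hopx at 31.2 CPM in BALB/c 1, against 92.5 CPM in B6 1. The BALB/c 1 values rest on 8 and 3 UMIs. B cell-like cells, in which Bhlhe40 is also known to be made, had 76.8 and 91.5 CPM of Bhlhe40 in BALB/c and 79.9 CPM in B6 1, from 7, 19 and 13 cells.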
